A study of Mus musculus with 9 samples.

Results

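Heat shock proteins and their DnaJ cochaperones were measured on arrays of left ventricle RNA from male C57BL/6 mice, 4 arrays from mice with transaortic constriction (TAC) and 5 from sham-operated mice, all at 6 weeks. The constriction narrows the aorta and so raises the load on the ventricle. The age of the mice and any other allele or agent are not given in the labels. The genes were chosen by symbol: those that start with Hsp90, Hspa, Hspb, Hspd, Hspe, Hsph or Dnaj, together with Cryab, Bag1, Bag2, Bag3, Stip1, Hsf1, Hsf2, Ahsa1 and Chordc1. Of the 18193 genes with a probe set of a single symbol, 80 met this rule, 36 heat shock proteins and partners and 44 DnaJ genes, with 186 probe sets in all. Hsp90ab1, Hsf1 and Dnajc19 were not analysed here. For each gene the brightest probe set stood for the gene, and the other probe sets were used as a check.

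Heat shock proteins are chaperones, which bind unfolded proteins and help them to fold, to be refolded or to be sent for degradation. HSP70 works in cycles of ATP use that DnaJ proteins start and that exchange factors such as the BAG proteins and HSP110 end, while HSP90 acts later on folded clients, and small heat shock proteins hold unfolding proteins without ATP. In heart muscle the small heat shock proteins and BAG3 are known for guarding the Z-disc and the sarcomere, whose proteins are stretched at every beat. Many of the genes are switched on by heat shock factor 1, which binds inverted repeats of the letters GAA in promoters.

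The values were the authors' RMA values, on a log2 scale, and a difference of 1 means a doubling. Differences are TAC minus sham, with the standard error (SE) of a limma fit over all genes, and a gene was called where the Benjamini-Hochberg adjusted p over all genes was below 0.05. Every array had a median of 6.5661, since RMA gives all arrays the same distribution, so a change of all RNA cannot be seen. Each of 4 known genes of pressure overload was higher in TAC, by 1.30 (Nppb) to 3.03 (Myh7), with no overlap between the groups. Of the listed heart muscle markers, 8 of 8 were measured, and their mean log2 value was 14.07 to 14.08 in TAC and 14.12 to 14.15 in sham. The 4 atrial markers averaged 5.35 to 5.75 in TAC and 5.31 to 5.54 in sham. Sham replicate 2 stood apart, with correlations of 0.987 to 0.993 to the other sham arrays, against 0.995 to 0.997 among those, and it had the lowest of the 5 sham values in 37 of the 80 genes. Where a list's counts changed without it, both values are given. Both are also given for some, but not all, of the described differences that shrank without it.

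Of the 80 genes, 17 were called higher and 5 lower in TAC, and 58 were not called. The share called in either direction, 27.5%, was near the 25.1% of all genes. By direction, the shares were 21.25% higher, where 12.8% of all genes were higher, and 6.25% lower, where 12.3% were lower. However, 67 of the 80 genes were brighter than the median gene, and brighter genes were called more often. In a fit of those brighter genes alone, 28.4% of the 67 and 21.2% of all were higher. In that fit 13.4% of the 67 and 24.2% of all were lower. The gap in lower calls depended on the setting. It was smaller with array weights, where 15% of the 80 genes and 16.7% of all genes were lower. With centred arrays 13.8% of the 80 and 16% of all were lower. The gap was wider among the brighter genes, and with cyclic loess, where 5% of the 80 and 12.1% of all were lower. The median difference of the 80 genes was 0.04 and that of all genes -0.00382. Without sham replicate 2, 17 were higher and 4 lower, where 13.1% and 13.9% of all genes were called, and the median was 0.02. The groups did not overlap in 24 of the 80 genes, near the 25.2% of all genes, with TAC above sham in 16 and below it in 8. The genes that rose were Hspa1b, Hspa1l, Hspa2, Hspa4, Hsp90aa1, Hspb6, Hspb7, Hspb8, Hspb11, Bag2, Bag3, Dnaja4, Dnajb4, Dnajc2, Dnajc10, Dnajc14 and Dnajc27. The genes that fell were Hspa12a, Dnajc4, Dnajc9, Dnajc25 and Dnajc28. In whole tissue, fewer cells of a type and less RNA per cell cannot be told apart. Of the fibroblast markers 4 of 6 were higher, with a mean log2 value of 11.21 to 11.57 in TAC and 10.78 to 10.95 in sham. Of the macrophage markers 4 of 6 were higher, with 9.72 to 9.86 in TAC and 9.13 to 9.50 in sham. The part of these cells in the differences was not tested.

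**Figure D1:**
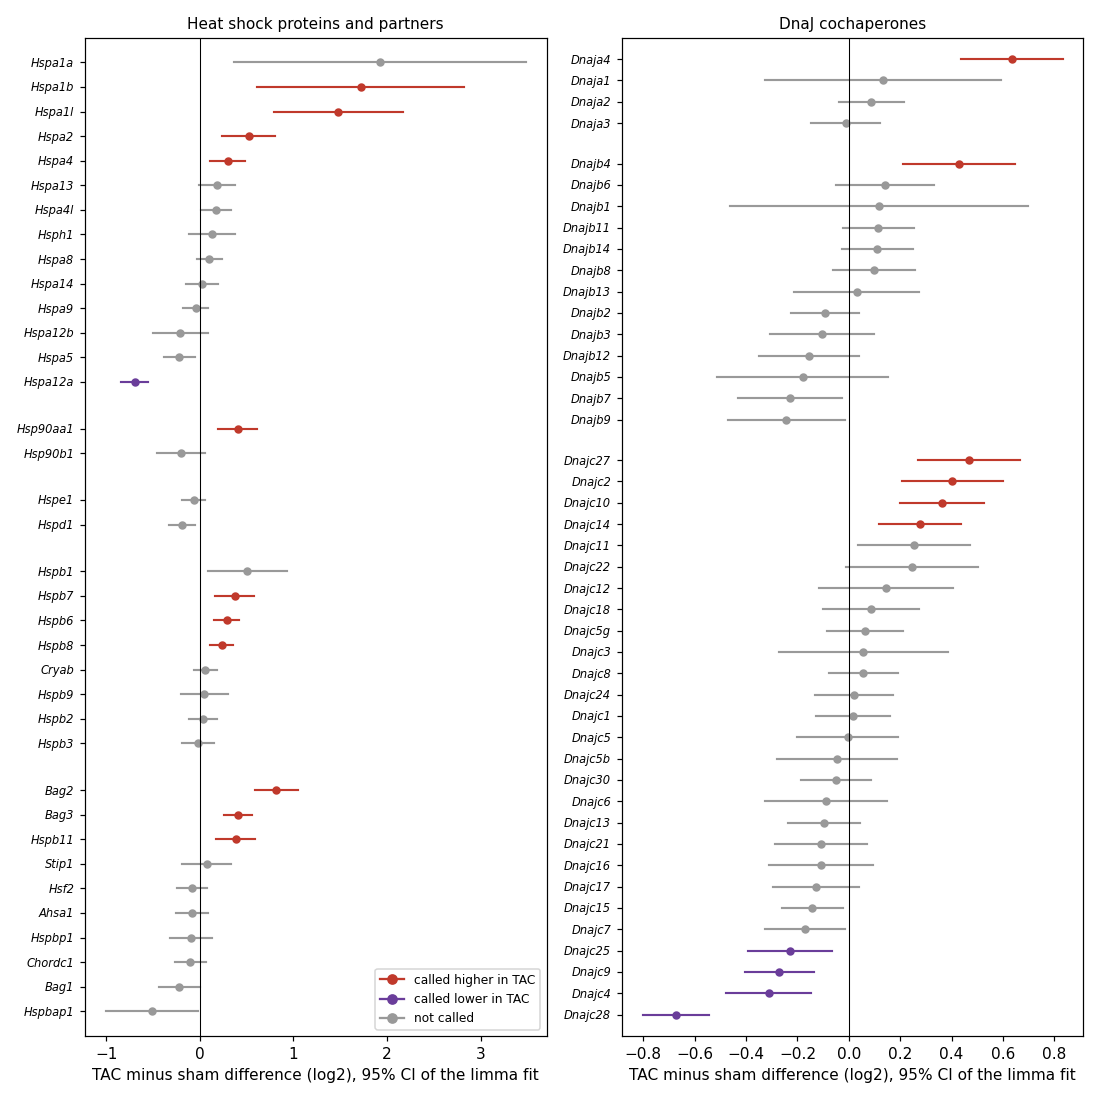
TAC minus sham difference of all 80 genes (log2, x axis) with the 95% confidence interval of the limma fit, grouped by family from top to bottom, with its own x range in each panel. The Hspa1 genes lie farthest to the right with the widest intervals, Hspa12a and Dnajc28 farthest to the left among called genes, and most DnaJ genes lie close to 0.

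The largest differences were in a cluster of 3 HSP70 genes on chromosome 17, whose promoters are shown first because the values of the 3 genes follow. Hspa1a and Hspa1b encode the heat-inducible HSP70, and Hspa1l encodes a close relative best known from testis. By RefSeq (GRCm38.p6), the start of Hspa1l lies 547 bases from that of Hspa1a on the opposite strand, and the start of Hspa1b lies 12918 bases from that of Hspa1a. The 250 bases before the start are printed for these genes at chr17:34972157-34972406 (minus strand), chr17:34959239-34959488 (minus strand) and chr17:34972453-34972702 (plus strand). For genes with several annotated starts the one with a match is shown. For comparison follow Dnaja4 at chr9:54699309-54699558 (plus strand) and Dnajb4 at chr3:152193846-152194095 (minus strand), which rose, and Hspd1 at chr1:55087933-55088182 (minus strand), which was not called. Capitals mark each match to GAANNTTC or TTCNNGAA, pairs of inverted GAA repeats that read the same on both strands.
Hspa1a: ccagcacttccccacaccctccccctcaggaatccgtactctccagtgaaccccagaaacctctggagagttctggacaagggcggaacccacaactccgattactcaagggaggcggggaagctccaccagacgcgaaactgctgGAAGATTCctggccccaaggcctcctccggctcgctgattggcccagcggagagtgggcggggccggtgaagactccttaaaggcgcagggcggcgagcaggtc
Hspa1b: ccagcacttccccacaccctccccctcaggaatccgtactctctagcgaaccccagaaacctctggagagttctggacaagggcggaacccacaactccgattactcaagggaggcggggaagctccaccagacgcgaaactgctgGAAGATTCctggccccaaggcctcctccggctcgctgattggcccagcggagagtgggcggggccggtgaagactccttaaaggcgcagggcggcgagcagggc
Hspa1l: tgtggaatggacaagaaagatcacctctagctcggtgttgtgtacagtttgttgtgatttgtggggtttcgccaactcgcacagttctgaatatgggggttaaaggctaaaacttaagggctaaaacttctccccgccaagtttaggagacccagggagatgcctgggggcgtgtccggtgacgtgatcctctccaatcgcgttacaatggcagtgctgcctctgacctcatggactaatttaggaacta
Dnaja4: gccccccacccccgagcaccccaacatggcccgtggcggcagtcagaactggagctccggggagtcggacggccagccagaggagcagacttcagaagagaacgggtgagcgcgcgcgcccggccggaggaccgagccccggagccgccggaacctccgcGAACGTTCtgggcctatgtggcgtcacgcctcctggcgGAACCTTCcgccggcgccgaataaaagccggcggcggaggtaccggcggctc
Dnajb4: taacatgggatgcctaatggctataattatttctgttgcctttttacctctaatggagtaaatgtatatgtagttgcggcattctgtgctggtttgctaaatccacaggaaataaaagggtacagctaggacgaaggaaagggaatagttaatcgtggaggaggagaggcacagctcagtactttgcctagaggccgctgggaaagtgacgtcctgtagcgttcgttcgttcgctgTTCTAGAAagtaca
Hspd1: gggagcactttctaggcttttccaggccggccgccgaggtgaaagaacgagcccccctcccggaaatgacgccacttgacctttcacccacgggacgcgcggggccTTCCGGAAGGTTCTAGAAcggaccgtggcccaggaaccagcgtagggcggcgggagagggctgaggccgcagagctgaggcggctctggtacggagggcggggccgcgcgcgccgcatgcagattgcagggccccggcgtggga

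The Hspa1a and Hspa1b windows were identical in 247 of 250 bases, and each held 1 match, 104 bases before the start. The Hspa1l window held no match to these letters. RefSeq promoter sequences were found for 66 of the 80 genes, and 14 of these, 21.2%, had a match in at least 1 window, where 14.5% of all 27025 genes with promoter sequences did. A match was found in 6 of the 15 genes called higher that had a promoter sequence, in 8 of the 46 not called, and in none of the 5 called lower. The longer motif GAANNTTCNNGAA or its reverse complement, which contains the shorter ones, was found in 3 of the 66 genes and in 0.514% of all genes. Those 3 were Dnajb6, Hspd1 and Hspe1, none of them called, and Hspd1 and Hspe1 share 215 bases of window because they are transcribed away from each other. A match describes the letters only.

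Hspa1b rose to about 3.29 times its sham level. Its values were 11.70, 11.19, 12.54 and 10.62 in TAC replicates 1 to 4, against 10.96, 8.95, 8.87, 9.62 and 10.57 in sham replicates 1 to 5. The highest sham array, replicate 1, lay above the lowest TAC array, replicate 4. The difference was 1.72 (SE 0.50, adjusted p = 0.0283), and all 3 probe sets of the gene were higher, by 1.72, 2.15 and 2.20. The call ended without TAC replicate 1 or 3 or sham replicate 3 or 4 (adjusted p up to 0.0890, without TAC replicate 3). It also just missed the threshold in a robust fit with a mean-variance trend (adjusted p = 0.0502). Without sham replicate 2 the difference was 1.51 and passed narrowly (adjusted p = 0.0482).

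Hspa1a had 7.58, 6.48, 8.85 and 5.39 in TAC, against 6.53, 3.88, 4.44, 5.03 and 5.88 in sham. The arrays stood in the same order as for Hspa1b within TAC, and sham replicates 1 and 5 were again the highest of their group. The difference of 1.92 had an SE of 0.70 and did not pass (adjusted p = 0.0709). It passed without TAC replicate 4 (2.48, adjusted p = 0.0244), without sham replicate 1 (2.27, adjusted p = 0.0395) and with array weights (adjusted p = 0.0224). The difference shrank to 1.33 without TAC replicate 3 (adjusted p = 0.194) and to 1.61 without sham replicate 2 (adjusted p = 0.118). Hspa1a and Hspa1b are nearly identical in sequence, so probe sets of each may also have bound RNA of the other.

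Hspa1l differed from both in that its TAC values were close together. They were 9.05, 8.86, 8.98 and 8.88, against 7.77, 6.29, 7.32, 7.74 and 8.20 in sham, with no overlap. The difference was 1.48 (SE 0.31, adjusted p = 0.00586). Sham replicate 2 was the lowest by far, and without it the difference was 1.19 (adjusted p = 0.000444).

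Hspa2, a further HSP70 gene best known from male germ cells, had 9.45, 9.55, 9.57 and 8.97 in TAC, against 8.90, 8.91, 8.79, 8.68 and 9.04 in sham. TAC replicate 4 lay within the sham range and the other 3 above it. The difference was 0.52 (SE 0.13, adjusted p = 0.0129). Hspa12a, a distant member of the family, was the one HSP70 gene called lower. Its values were 9.11, 9.10, 9.10 and 9.08 in TAC, against 9.85, 9.92, 9.79, 9.70 and 9.69 in sham. The difference was -0.69 (SE 0.07, adjusted p = 4.48e-05), and 2 of its 3 other probe sets were also called lower (-0.51 and -0.49). Its relative Hspa12b, known from endothelium, differed by -0.21 and missed the threshold (adjusted p = 0.296).

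Hspa8, which encodes the HSC70 of every cell, differed by 0.10 (95% confidence interval -0.03 to 0.23, adjusted p = 0.244, but 0.0458 in a robust fit with a mean-variance trend) at a probe set that averaged 14.01, where bright signals may be compressed. Both other bright probe sets gave 0.10 and 0.12, while the dimmest, with 10.33, 7.56, 8.50 and 6.88 in TAC and 6.28 to 7.38 in sham, gave 1.58 (adjusted p over all probe sets = 0.0714). The mitochondrial HSP70 gene Hspa9 differed by -0.04 (interval -0.18 to 0.09), and Hspa14, an HSP70 that works at the ribosome, by 0.02 (interval -0.15 to 0.20). Hspa5, which encodes BiP in the endoplasmic reticulum, differed by -0.22 (SE 0.07) and just missed the threshold (adjusted p = 0.0566), which it passed in a robust fit with a mean-variance trend (adjusted p = 0.0115), with array weights, with centred arrays and among genes brighter than the median gene. Hspa13, an HSP70 of microsomes, differed by 0.19 (adjusted p = 0.153). The HSP110 genes encode exchange factors of HSP70. Of these Hspa4 rose by 0.30 (SE 0.08, adjusted p = 0.0265) with no overlap between the groups, and its call ended without TAC replicate 1, 3 or 4 or sham replicate 3 (adjusted p up to 0.0820). Its next brightest probe sets gave 0.53 and 0.72 and were called. Hspa4l, at 0.17 (adjusted p = 0.118), and Hsph1, at 0.13 (adjusted p = 0.448), or 0.07 without sham replicate 2, did not pass.

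**Figure D2:**
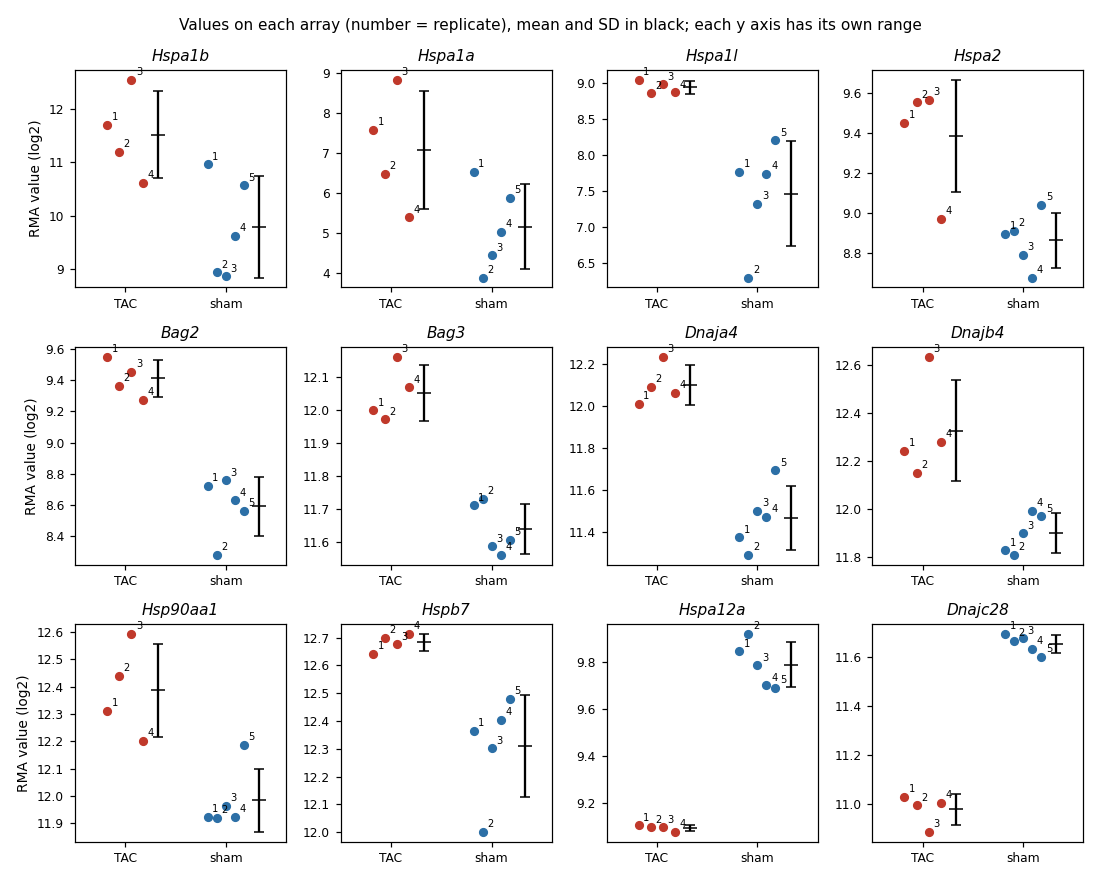
RMA values (log2, y axis, its own range in each panel) of 12 genes on each array, with TAC at the left and sham at the right, the replicate number beside each point, and mean and SD in black. The TAC values of Hspa1a and Hspa1b are widely spread and overlap sham, whereas those of Hspa1l, Hspb7 and Hspa12a lie close together and apart from sham.

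Hsp90aa1, the inducible cytosolic HSP90 gene, had 12.31, 12.44, 12.59 and 12.20 in TAC, against 11.92, 11.92, 11.96, 11.92 and 12.19 in sham. The groups did not overlap, but sham replicate 5 came close to TAC replicate 4. The difference was 0.40 (SE 0.09, adjusted p = 0.0100018), and the next 3 of its 5 probe sets were called higher too, by 0.54 to 0.65. Hsp90b1, the HSP90 of the endoplasmic reticulum, differed by -0.20 (adjusted p = 0.257). Hspd1 and Hspe1 encode the HSP60 and HSP10 of mitochondria. For Hspd1 all TAC values lay below all sham values, with means of 12.28 ± 0.09 in TAC (SD, n = 4) and 12.47 ± 0.05 in sham (SD, n = 5), and the difference of -0.19 (SE 0.06) just missed the threshold (adjusted p = 0.0504). Hspe1 differed by -0.07 (adjusted p = 0.435).

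Among the 8 small heat shock protein genes 3 were higher, Hspb6, Hspb7 and Hspb8. In limma, at an unadjusted p below 0.05 or with a mean-variance trend 0 were lower. Of all genes 12.8% were higher, and 21.2% in the fit of genes brighter than the median gene. Hspb7, which encodes a small heat shock protein of heart and muscle, had 12.64, 12.70, 12.68 and 12.71 in TAC, against 12.36, 12.0005, 12.30, 12.40 and 12.48 in sham. The difference was 0.37 (SE 0.09, adjusted p = 0.0148), or 0.29 without sham replicate 2 (adjusted p = 0.00626). Its other probe sets gave 0.55 and 0.61. Hspb6, also called HSP20, had 13.84, 13.80, 13.96 and 13.82 in TAC, against 13.58, 13.59, 13.62, 13.56 and 13.51 in sham. The difference was 0.29 (SE 0.06, adjusted p = 0.00561). Hspb8, a partner of BAG3, had 13.64, 13.68, 13.69 and 13.63 in TAC, against 13.40, 13.45, 13.46, 13.36 and 13.48 in sham, a difference of 0.23 (SE 0.06, adjusted p = 0.0123). A dimmer probe set of Hspb8 gave 0.63 (adjusted p over all probe sets = 0.00149), and the dimmest gave 0.20 and was not called (adjusted p = 0.0754). In each of these genes the TAC values lay above all sham values.

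Hspb1, which encodes HSP25 in mice, had 13.0003, 12.94, 13.21 and 12.93 in TAC, against 12.73, 11.89, 12.34, 12.60 and 12.996 in sham. Sham replicate 5 lay within the TAC range and sham replicate 2 far below it. The difference of 0.51 (SE 0.19) did not pass (adjusted p = 0.0761), passed without sham replicate 5 (0.63, adjusted p = 0.0256) and was 0.35 without sham replicate 2 (adjusted p = 0.0727). Cryab, the gene of alpha-B crystallin, which binds desmin and is mutated in a familial muscle disease, differed by 0.06 (interval -0.07 to 0.18, adjusted p = 0.508) at a probe set that averaged 13.90. Its next probe set gave 0.15 with all TAC values above all sham values and did not pass (adjusted p over all probe sets = 0.101). Hspb2 and Hspb3, whose proteins form a complex in muscle, differed by 0.03 and -0.02. The testis gene Hspb9 differed by 0.05 at a dim probe set that averaged 4.86, where the median gene had 7.65.

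Of the BAG genes in the rule, Bag1, Bag2 and Bag3, 2 rose, where 12.8% of all genes were higher. Outside the rule, Bag4 (-0.05), Bag5 (-0.10) and Bag6 (0.05) were not called. Bag2, which inhibits the ubiquitin ligase CHIP, had 9.55, 9.36, 9.45 and 9.27 in TAC, against 8.72, 8.28, 8.76, 8.63 and 8.56 in sham. The difference of 0.82 (SE 0.10, adjusted p = 0.000289) had the smallest p of the genes called higher. Bag3, which joins HSP70 to small heat shock proteins at the Z-disc and steers damaged proteins to autophagy, had 12.0005, 11.97, 12.16 and 12.07 in TAC, against 11.71, 11.73, 11.59, 11.56 and 11.61 in sham. The difference was 0.41 (SE 0.07, adjusted p = 0.00145). The groups did not overlap for either gene. Bag1, a further exchange factor, differed by -0.22 (adjusted p = 0.134).

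Hspb11, now known as a protein of intraflagellar transport and not a small heat shock protein, had 8.69, 8.83, 8.72 and 8.63 in TAC, against 8.38, 8.04, 8.40, 8.32 and 8.51 in sham. The groups did not overlap, and the difference was 0.39 (SE 0.09, adjusted p = 0.0129), or 0.31 without sham replicate 2. Its other probe set gave -0.09, and with the mean of both the difference was 0.15 and did not pass (adjusted p = 0.326). The HSP90 cochaperones were not called: Stip1, which passes clients from HSP70 to HSP90, differed by 0.07 (0.002 without sham replicate 2), the ATPase activator Ahsa1 by -0.08 and Chordc1 by -0.10 (adjusted p = 0.722, 0.507 and 0.360). Hspbp1, an exchange factor, differed by -0.10, and Hspbap1, which binds HSPB1, by -0.51 with an SE of 0.22 (adjusted p = 0.126), or by -0.34 without sham replicate 2. The other probe sets of Hspbap1 gave differences above 0, of 0.16, 0.21 and 0.10, none of them called. The heat shock factor gene Hsf2 differed by -0.08 (adjusted p = 0.472). Its probe set averaged 4.17, where the median gene had 7.65, and whether its RNA was detected was not tested.

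DnaJ proteins are sorted into types A, B and C by which domains they keep beside the J domain. Of the 44 DnaJ genes 6 rose and 4 fell, 13.6% and 9.09%, near the shares of all genes, or 6 and 3 without sham replicate 2, and the 34 not called had differences of -0.24 to 0.25. Type A held 1 call among 4 genes. Dnaja4 had 12.01, 12.09, 12.23 and 12.06 in TAC, against 11.37, 11.29, 11.50, 11.47 and 11.69 in sham, a difference of 0.63 (SE 0.09, adjusted p = 0.000535) with no overlap. Its other probe sets gave 0.82 and 0.73, so that all 3 were called. Dnaja1, at 0.13 with a wide interval of -0.32 to 0.59 (0.05 without sham replicate 2), Dnaja2, at 0.09, and the mitochondrial Dnaja3, at -0.01, did not pass.

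Type B also held 1 call, among 13 genes. Dnajb4, a cochaperone present in heart and muscle, had 12.24, 12.15, 12.63 and 12.28 in TAC, against 11.83, 11.81, 11.90, 11.99 and 11.97 in sham. The difference was 0.43 (SE 0.10, adjusted p = 0.00968), with no overlap, and a second probe set gave 0.85, while the dimmest gave -0.15. Dnajb1, the classical heat-inducible HSP40 gene, had 10.30, 10.35, 10.08 and 9.38 in TAC, against 10.64, 9.51, 9.48, 9.91 and 10.02 in sham, so the lowest value was on a TAC array and the highest on a sham array. Its difference of 0.12 (SE 0.26, adjusted p = 0.799) was smaller than the SD within either group, and was 0.01 without sham replicate 2. Dnajb6, which keeps desmin and other proteins from clumping, had a difference of 0.14 that did not pass, while its second probe set was called, at 0.40 (adjusted p over all probe sets = 0.00301).

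Type C held 4 calls in each direction among 27 genes. Dnajc27, which encodes a Rab-like GTPase with a J domain, had 8.62, 8.69, 8.56 and 8.66 in TAC, against 8.20, 7.88, 8.30, 8.15 and 8.28 in sham, a difference of 0.47 (SE 0.09, adjusted p = 0.00356). Dnajc2, which works with Hspa14 at the ribosome, had 10.91, 10.98, 10.95 and 11.19 in TAC, against 10.54, 10.41, 10.63, 10.67 and 10.78 in sham, a difference of 0.40 (SE 0.09, adjusted p = 0.00779). Its partner Hspa14 was nearly level, as given above. Both called probe sets of Dnajc2, which averaged 10.78 and 8.98, have the suffix that marks probes shared between transcripts. The brightest probe set without that suffix was dimmer, with an average of 6.12. It gave 0.24 and did not pass (adjusted p = 0.229). Dnajc10, a disulfide reductase of the endoplasmic reticulum, had 10.18, 10.29, 10.29 and 10.15 in TAC, against 9.76, 9.97, 9.99, 9.80 and 9.80 in sham. The difference was 0.36 (SE 0.07, adjusted p = 0.00493), and all 3 probe sets were called, at 0.33 to 0.40. Dnajc14, known for the transport of a dopamine receptor out of the endoplasmic reticulum, rose by 0.28 (SE 0.07, adjusted p = 0.0179), a call that ended without TAC replicate 1 or 2 (adjusted p up to 0.0606). All 4 of these genes had TAC values above all sham values.

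Dnajc28 had the smallest p of all 80 genes. Its values were 11.03, 11.00, 10.89 and 11.01 in TAC, against 11.69, 11.66, 11.67, 11.63 and 11.60 in sham. The difference was -0.67 (SE 0.06, adjusted p = 2.80e-05), and its second probe set gave -0.61. Dnajc4 had 10.38, 10.40, 10.26 and 10.43 in TAC, against 10.82, 10.53, 10.68, 10.75 and 10.62 in sham (difference -0.31, SE 0.07, adjusted p = 0.0115). Dnajc9, a histone chaperone, had 8.44, 8.32, 8.38 and 8.51 in TAC, against 8.68, 8.71, 8.69, 8.70 and 8.63 in sham (difference -0.27, SE 0.06, adjusted p = 0.00828). Dnajc25 had 10.39, 10.32, 10.23 and 10.24 in TAC, against 10.70, 10.50, 10.54, 10.47 and 10.41 in sham. The difference of -0.23 (SE 0.07, adjusted p = 0.0461) was close to the threshold, and the call ended on leaving out any 1 of 8 arrays, sham replicate 5 being the exception (adjusted p up to 0.125, without TAC replicate 3). No TAC value of these 4 genes reached the sham range. Dnajc7, at -0.17, and the mitochondrial Dnajc15, at -0.14, also had all TAC values below all sham values but did not pass (adjusted p = 0.102 and 0.0832).

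By place in the cell, of 12 genes listed for the endoplasmic reticulum 1 rose (Dnajc10) and 1 fell (Dnajc25, lost without sham replicate 2), with a median of 0.04. Of all genes 12.8% were higher and 12.3% lower. Dnajc14, called higher, was not on this list, which may not hold every gene of that compartment. At an unadjusted p below 0.05, 1 of the 12 was higher and 3 were lower. The fit with a mean-variance trend called 1 higher and 2 lower, and array weights called 2 higher and 3 lower. Of these 12 genes the stress-induced Dnajb9 differed by -0.24 (adjusted p = 0.114), Dnajb11 by 0.12 (adjusted p = 0.216) and Dnajc3 by 0.06 (adjusted p = 0.828). Of 7 genes listed as mitochondrial limma called 0 in either direction, with a median of -0.05. Of those 7, 1 was higher and 2 were lower at an unadjusted p below 0.05. The fit with a mean-variance trend and the fit with array weights each called 2 lower, Hspd1 and Dnajc15. Dnajc28 and Dnajc4, both called lower, were not on this list, which may not hold every mitochondrial gene.

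**Figure D3:**
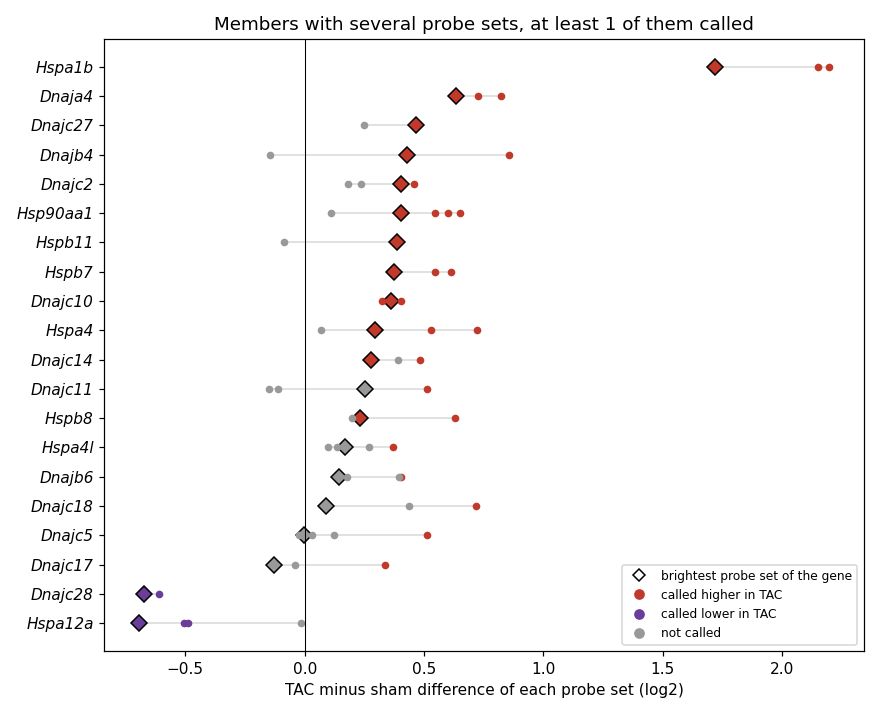
TAC minus sham difference (log2, x axis) of every probe set of the 20 genes that had several probe sets and at least 1 called over all probe sets, with a diamond for the brightest. No gene has calls on both sides of 0, and in many genes the diamond lies nearer to 0 than the other called probe sets.

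Of the 80 genes 49 had several probe sets. In 20 of them at least 1 probe set was called, adjusted over all 34945 probe sets, of which 11.0% were higher and 9.78% lower, and in 0 of the 20 were probe sets called in both directions. In 12 genes 2 or more probe sets were called, and in 9 of these the brightest had the smallest difference among the called probe sets, as for Hspa1b, Hspb7, Hspa4 and Hsp90aa1. In 6 genes a dimmer probe set was called and the brightest was not. These were Hspa4l (0.37), Dnajb6 (0.40), Dnajc5 (0.51), Dnajc11 (0.51), Dnajc17 (0.34) and Dnajc18 (0.72), whose brightest probe sets gave 0.17, 0.14, -0.0046, 0.25, -0.13 and 0.09. Probe sets of a gene may measure different transcript ends, which was not tested.

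A few of the heat-inducible genes varied widely from array to array within the groups, while most did not. This list of 16 known targets of heat shock factor 1 had 4 genes higher, Hspa1b, Hsp90aa1, Dnajb4 and Bag3. That is 25%, where 12.8% of all genes were higher. The list's median difference was 0.12, or 0.07 without sham replicate 2. Every gene of the list but Hspa1a was brighter than the median gene. In the fit of those brighter genes alone 21.2% of all were higher, and Hspb1 was also called higher and Hspd1 lower. In limma 0 of the 16 were lower, with 1 lower at an unadjusted p below 0.05 and 1, Hspd1, called lower with a mean-variance trend or with array weights. The SD within groups was 1.26 for Hspa1a and 0.892 for Hspa1b, percentiles 99.99 and 99.97 among all genes, and 0.462 for Dnajb1, 0.360 for Dnaja1 and 0.328 for Hspb1. In 5 of the 16 genes the SD was above the 90th percentile of all genes. The median SD was 0.147 over the 16 genes, 0.121 over all 80 and 0.150 over all genes, and Hspe1, Cryab, Hspa8, Hspd1 and Bag3 had SDs of 0.037 to 0.080. TAC replicate 3 lay above the TAC mean in 16 of the 16 genes and was the highest TAC array in 13. TAC replicate 4 was the lowest TAC array in 10 of the 16. Among sham arrays, replicate 2 was the lowest in 10, replicates 1 and 5 were the highest in 7 each, and replicate 3 lay above the sham mean in 1 of the 16. Over all 80 genes the same arrays were often at the ends of their groups. TAC replicate 3 was the highest TAC array in 36 and TAC replicate 4 the lowest in 35. Sham replicates 1 and 5 were the highest sham arrays in 28 and 25, and sham replicate 2 the lowest in 37.

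**Figure D4:**
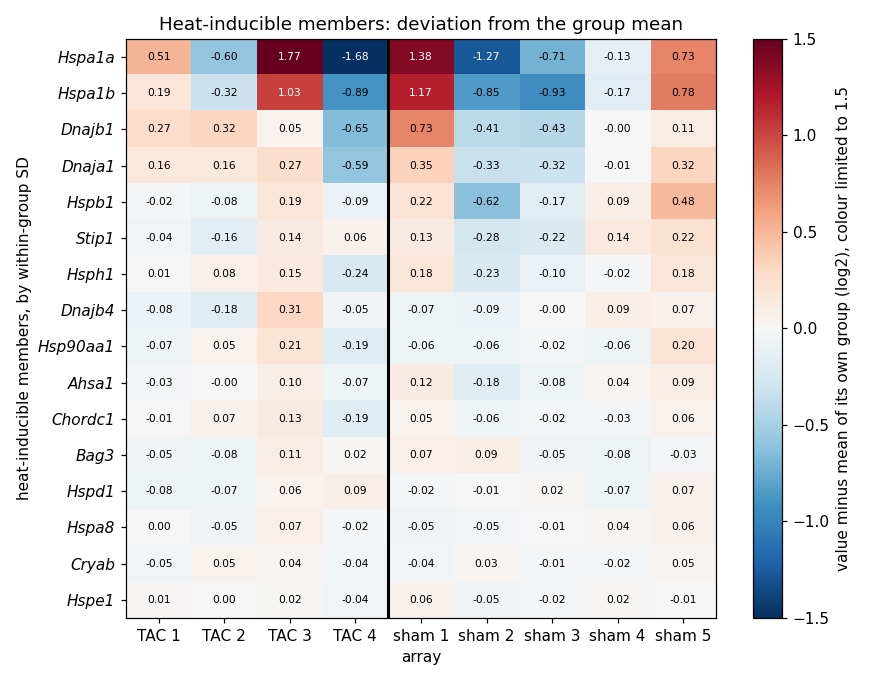
Value minus the mean of its own group (log2, colour and number) for the 16 heat-inducible genes (rows, by spread) on each array (columns, TAC at the left). TAC replicate 3 and sham replicates 1 and 5 are mostly red (above their group mean), and TAC replicate 4 and sham replicates 2 and 3 mostly blue (below it), most strongly in Hspa1a and Hspa1b.

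Early response genes, which change within minutes of a stimulus, are given beside these because some of them too varied widely within groups. Atf3 had SDs of 1.01 in TAC and 0.51 in sham. Others varied little, such as Jund, with 0.036 in TAC and 0.090 in sham. Of 12 such genes 2 were higher, Egr2 by 1.95 (adjusted p = 0.000843) and Atf3 by 1.64 (adjusted p = 0.0178), and Dusp1 fell by 0.35 (adjusted p = 0.00928). These shares, 16.7% higher and 8.33% lower, were near the 12.8% and 12.3% of all genes. Atf3 had 10.53, 8.97, 10.91 and 9.02 in TAC, against 8.83, 7.57, 7.92, 8.14 and 8.64 in sham. For Atf3, TAC replicate 3 and sham replicate 1 were the highest of their groups, as for Hspa1a and Hspa1b. Other early response genes had another order. Egr2 was highest in TAC replicate 1 and sham replicate 2, and Dusp1 in TAC replicate 2 and sham replicate 2. Over the 12 genes the median deviation from the TAC mean was 0.0027 on TAC replicate 3 and 0.29 on TAC replicate 1. Fos had 11.25, 10.16, 10.86 and 10.45 in TAC, against 10.93, 11.82, 10.19, 11.26 and 10.87 in sham, with sham replicate 2 the highest array. The part of early responses in the spread of the heat shock genes was not tested.

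Chaperone genes outside the 80 went in both directions. The counts of each list below stand beside shares of 12.8% higher and 12.3% lower over all genes. Most of the genes listed were brighter than the median gene. In the fit of such genes alone 21.2% were higher and 24.2% lower. Of 15 other HSP90 cochaperones and assembly factors 2 rose and 4 fell, or 5 without sham replicate 2. Fkbp4, a steroid receptor partner of HSP90, had 10.69, 10.63, 10.61 and 10.75 in TAC, against 11.73, 11.21, 11.44, 11.70 and 11.63 in sham (difference -0.87, SE 0.11, adjusted p = 0.000231). Its relative Fkbp5, a target of the glucocorticoid receptor, was higher by 0.50 (adjusted p = 0.00622). The phosphatase gene Ppp5c (-0.30) and the myosin chaperone gene Unc45b (-0.34) fell as well. Of 11 further exchange factors and partners of HSP70 Grpel2 rose (0.25), and Sil1 (-0.28) and Hyou1 (-0.37) fell, shares of 9.09% and 18.2%. Without sham replicate 2 none of the 11 rose and 1 fell.

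In the TRiC chaperonin, which folds actin and tubulin, limma called 0 of 8 genes, with 7 differences above 0, a median of 0.09 and 1 gene at an unadjusted p below 0.05. Of these 8, the fit with a mean-variance trend called 1 higher, and array weights and leaving out sham replicate 2 each called 1 lower. Of 6 prefoldin genes, whose complex delivers clients to TRiC, Pfdn1 rose (0.23) and Pfdn6 (-0.50) and Pfdn2 (-0.30) fell. These were 16.7% higher and 33.3% lower, where 12.8% and 12.3% of all genes were. Of 10 mitochondrial chaperone and protease genes 4 fell, Clpp (-0.49), Spg7 (-0.44), Trap1 (-0.44) and Clpx (-0.40), with a median of -0.26. That is 40% lower, where 12.3% of all genes were lower. All 10 were brighter than the median gene, and in the fit of such genes alone 24.2% were lower. Without sham replicate 2, 5 fell and the median was -0.30. Limma called 0 of the 10 higher, with 1 higher at an unadjusted p below 0.05, and 1 was called higher with a mean-variance trend or with array weights.

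Of 7 genes of BAG3-dependent autophagy, the filamin gene Flnc rose by 1.12 (SE 0.14, adjusted p = 0.000323), with 11.24, 11.11, 11.53 and 11.40 in TAC and 9.74 to 10.49 in sham. The autophagy receptor gene Sqstm1 rose by 0.33 (adjusted p = 0.0171), and Stub1, which encodes CHIP, fell by 0.33 (adjusted p = 0.0185). The list was thus 28.6% higher and 14.3% lower, where 12.8% and 12.3% of all genes were. Of 4 other heat shock factor genes and partners limma called 0, with 0 at an unadjusted p below 0.05 and 0 called with a mean-variance trend or array weights, and the differences were -0.25 to -0.01.

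**Figure D5:**
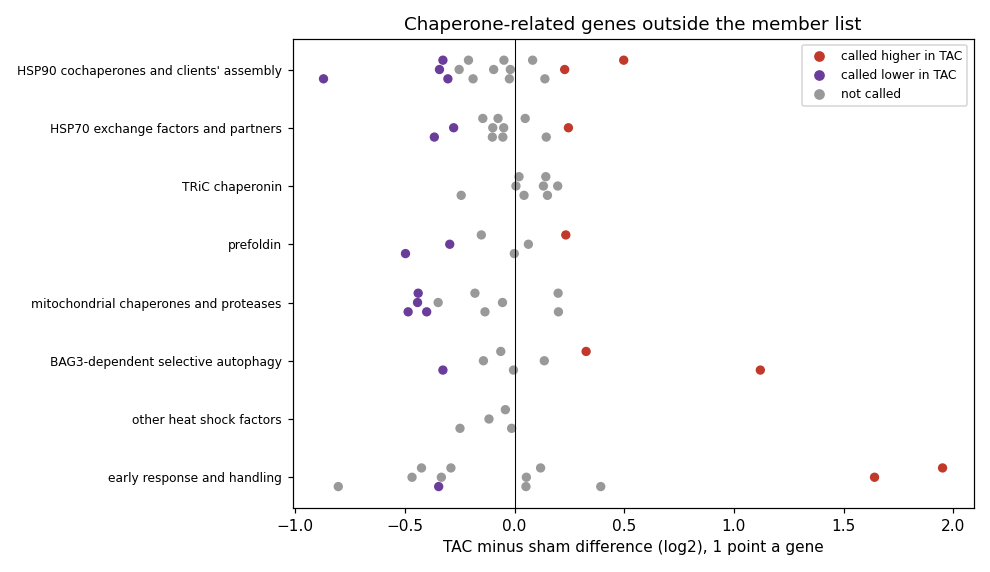
TAC minus sham difference (log2, x axis) of each measured gene in 8 lists of related genes (rows), coloured by call. The called mitochondrial chaperone and protease genes lie at the left of 0, Flnc, Egr2 and Atf3 lie at the far right, and Fkbp4 at the far left.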

How the data were processed

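The deposited values were log2 values that the authors made with RMA, per the submitters' processing notes, from Affymetrix arrays hybridized with amplified, biotin-labelled RNA, per the labels' protocols. RMA subtracts background, brings the arrays to 1 shared distribution and sums up each probe set. No version is given in the sources used here. Arrays carry no depth, and their number limits the precision. Gene symbols came from the platform annotation, matched by gene ID to RefSeq for all 80 genes. Probe sets with several symbols (932), not listed (9160) or for controls (64) were left out.

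The brightest of a gene's probe sets over all 9 arrays was fitted by lmFit and eBayes (limma 3.58.1, R 4.3.3; TAC minus sham, two-sided, 7 residual and 3.27 prior degrees of freedom), with Benjamini-Hochberg adjustment over 18193 genes. The fit was tested on simulated data. The labels give no batch or pairing and do not say that every array is a separate animal. P-values thus cover only the spread seen among these arrays, which may be technical, and replicate numbers follow the order of the samples. Promoter letters were searched in Python 3.11.15 with pandas 2.3.3. The members and lists were chosen with earlier results of these data known. Every gene of the list that is no DnaJ gene and every called DnaJ gene was named, and array values were given for the 12 genes called higher with the smallest p, for all 5 called lower, and for Hspa1a and Hspa1b. From the other lists, up to 4 called genes with the smallest p were named, and some that were not called, such as Bag4, Bag5 and Bag6. DnaJ genes that were not called were named where another probe set passed; the others named (Dnaja1, Dnaja2, Dnaja3, Dnajb1, Dnajb9, Dnajb11, Dnajc3, Dnajc7 and Dnajc15) were chosen after their values were seen. Array values of Hspa2, Hspb1, Hspb7, Dnajb1, Hspa8, Atf3, Fos, Fkbp4 and Flnc were added after seeing the values. Alternatives were the mean of probe sets, probe sets below 13, no shared-probe suffix, genes above the median, trend with robust fitting, array weights, centring, cyclic loess, stricter thresholds and leaving out each array.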

Additional observations from a re-analysis of the deposited data

Results flagged for a closer look

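In 4 of the 160 combinations of gene and group, 1 array stood far from the others by Dixon's ratio of its gap to the group's range; chance flags about 1 in 20. For Dnaja1, TAC replicate 4 was the lowest at 10.70, the next being 11.45 (ratio 0.876). For Dnajc11, sham replicate 2 was the lowest at 8.92, the next being 9.28 (ratio 0.885). For Dnajc16, sham replicate 5 was the lowest at 8.94, the next being 9.27 (ratio 0.792). For Hsp90aa1, sham replicate 5 was the highest at 12.19, the next being 11.96 (ratio 0.838).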

How the results depend on the processing

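Of the 22 called genes, 0 changed sign under any alternative run, 18 kept the call when any 1 array was left out, and 15 kept it under all alternatives with the same threshold. The count of 17 higher genes became 4 with a threshold of 1.5-fold and 9 with an adjusted p below 0.01, and was 14 to 18 when 1 array was left out. The count of 5 lower genes became 9 among genes brighter than the median gene, 8 in a robust fit with a mean-variance trend, 12 with array weights, 11 with arrays centred on their median, 2 at 1.5-fold and 3 with an adjusted p below 0.01. It was 4 to 8 when 1 array was left out, and the 8 came without sham replicate 1. Centring moved the median of all genes to -0.05 and ended the call of Hspb8 (0.18, adjusted p = 0.0646). With centring 40.5% of the called genes of the whole array were higher, against 51.1% in the values as deposited. Cyclic loess ended the call of Dnajc25 (-0.20, adjusted p = 0.0710). Of the genes not called, 15 passed under at least 1 alternative other than leaving out an array, among them Hspd1 (-0.24 to -0.19), Hspa5 (-0.27 to -0.22) and Hspa8 with the mean of its probe sets (0.48, adjusted p = 0.0481), and 16 changed sign under at least 1 alternative. No paired analysis was possible because the labels give no replicate numbers shared between the groups. The causes were not tested.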
